A study of Mus musculus with 20 samples.

Results

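Sphingosine-1-phosphate (S1P) is a lipid signal that is made inside cells and read at their surface. The kinases *Sphk1* and *Sphk2* phosphorylate sphingosine, the transporter *Spns2* exports the product from endothelial and other cells, and the lyase *Sgpl1* of the endoplasmic reticulum cleaves it irreversibly. Outside the cell, S1P binds G protein-coupled receptors: *S1pr1* couples to Gi and Rac and tightens endothelial junctions, *S1pr2* couples mainly to G12/13 and stiffens the actin cytoskeleton, *S1pr3* couples to Gi, Gq and G12/13, and *S1pr4* and *S1pr5* are best known from lymphocytes, natural killer cells and oligodendrocytes. In the growing retina, *S1pr1* is known to restrain endothelial sprouting, and *S1pr2* is known from work on pathological vessel growth. The 9 genes described here are these 5 receptors, the 2 kinases, the transporter and the lyase. They were chosen by gene symbol from 18754 genes listed in all the expression tables. Earlier results of these data were known beforehand, among them the *S1pr2* values of the first comparison. All 9 were listed in every table and above 0 in all 20 libraries.

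Bulk RNA-Seq of whole mouse retina was carried out on 20 libraries, 5 in each of 4 groups. *Atf6*+/+ and *Atf6*-/- mice went through oxygen-induced retinopathy (OIR), in which pups of both sexes breathe 75% oxygen from P7 to P12, lose part of their retinal vessels and regrow them abnormally in room air, and the P17 retinas are from the peak of that growth. The *Atf6*-/- allele, present in all cells, carries a premature stop codon and removes ATF6, a membrane-bound transcription factor of the unfolded protein response. In the other experiment, wild-type P30 mice, for which the labels name no OIR, were injected in both eyes. They received 1 µL of 10 µM Ceapin-A7, a small molecule that holds ATF6 in the endoplasmic reticulum, or of saline (PBS). The methods name the solvent dimethyl sulfoxide in both injections, at a higher content in the control saline. Drug and solvent content can therefore not be told apart. Retinas were collected 24 h later. Values are FPKM, mapped fragments scaled by transcript length and by the size of the library, so levels can be set side by side between genes. The sources do not say whether each library came from its own mouse, so p-values measure the spread between these libraries.

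*Atf6* RNA itself lay between 13.57 and 17.5 FPKM in the 20 libraries and does not tell the genotypes apart, so the genotypes rest on the labels. The depth of the libraries is unknown, and steps between low values gave relative depths of 1.0 apart from Ceapin-A7 replicate 3 at 0.714. These steps come from values with 2 decimals, so smaller differences in depth cannot be seen. *Gnat1*, the transducin of photoreceptors, was between 3841 and 6863 FPKM in each library, as retina should show. PBS replicates 4 and 5 stood apart from PBS replicates 1 to 3: their summed FPKM of 8 Müller glia markers were 790.0 and 982.6 against 1280 to 1952. Of the 9 S1P genes, 5 were higher in both of these libraries than in PBS replicates 1 to 3, as were 17.9% of all genes tested: *S1pr1* by a ratio of means of 1.499, *S1pr2* by 1.72, *Sphk1* by 1.46, *Sphk2* by 1.23 and *Spns2* by 1.26. The fold changes of the S1P genes, the counts of lists that rest on these libraries and the named pathway genes that they move are therefore also given without them, a choice made after seeing the data. In whole retina, fewer cells of a type and less RNA per cell cannot be told apart.

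*S1pr3* and *S1pr1* carried most of the receptor RNA, and their order differed between the experiments. In P17 OIR retina *S1pr3* led, at 19.2 ± 3.00 FPKM in *Atf6*+/+ and 16.4 ± 1.14 FPKM in *Atf6*-/- (SD, n = 5 each), with *S1pr1* next at 13.1 ± 1.42 and 12.3 ± 1.33 FPKM. In P30 retina *S1pr1* led, at 16.96 ± 4.08 FPKM after PBS and 15.3 ± 0.846 FPKM after Ceapin-A7, while *S1pr3* was at 10.8 ± 2.24 and 9.01 ± 1.38 FPKM. The ratio of *S1pr3* to *S1pr1* was above 1 in 5 of 5 *Atf6*+/+ OIR, 5 of 5 *Atf6*-/- OIR, 1 of 5 PBS and 0 of 5 Ceapin-A7 libraries, with means of 1.48, 1.34, 0.676 and 0.587. The 2 experiments were normalized separately and differ in age, oxygen exposure and injection at once, which cannot be told apart, so no test was made between them.

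**Figure D1:**
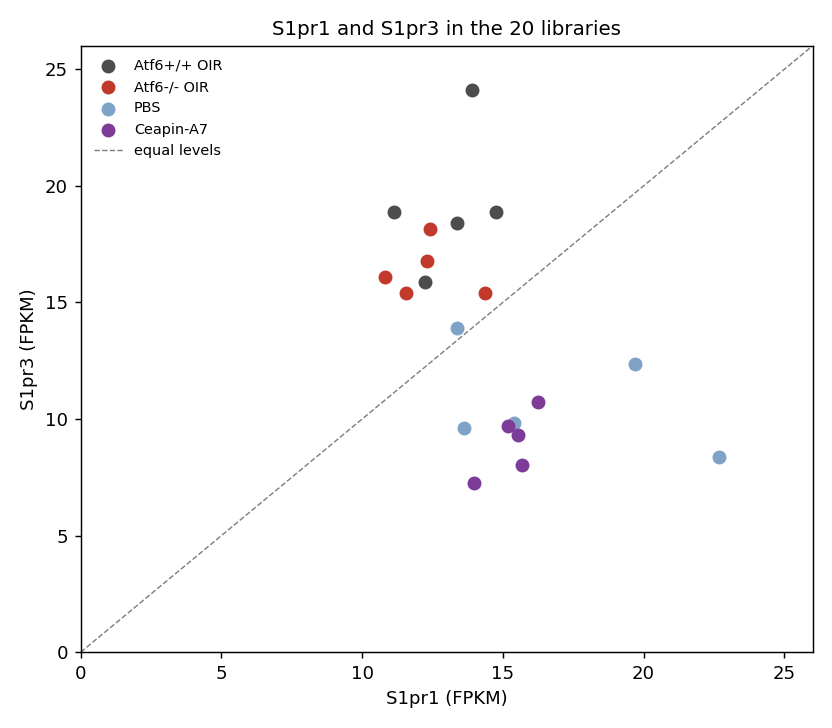
FPKM of *S1pr3* (vertical axis) against *S1pr1* (horizontal axis) in each of the 20 libraries, coloured by group, with a dashed line at equal levels. All 10 OIR libraries lie above the line, and 9 of the 10 P30 libraries lie below it, the exception being PBS replicate 1 at a ratio of 1.04.

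The rest of the order was much the same in the 4 groups. *Sphk2*, *Sgpl1* and *Spns2* had group means between 6.98 and 11.2 FPKM, *Sgpl1* standing just above *S1pr3* in P30 retina, and were followed by *Sphk1* between 2.99 and 4.23 FPKM and *S1pr2* between 1.39 and 2.14 FPKM. *Sphk2* exceeded *Sphk1* in all 20 libraries, and the ratio of *Sphk1* to *Sphk2* had group means between 0.364 and 0.433. *S1pr5*, between 0.322 and 0.492 FPKM, and *S1pr4*, between 0.118 and 0.130 FPKM, were at the bottom of the order in each group. Neighbours in the order whose ranges overlapped were *Sphk2* with *Sgpl1* in both OIR groups, *Sgpl1* with *Spns2* in *Atf6*+/+ OIR, and *Sgpl1* with *S1pr3*, *S1pr3* with *Sphk2* and *Sphk2* with *Spns2* in both P30 groups. The other neighbours had separate ranges.

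**Figure D2:**
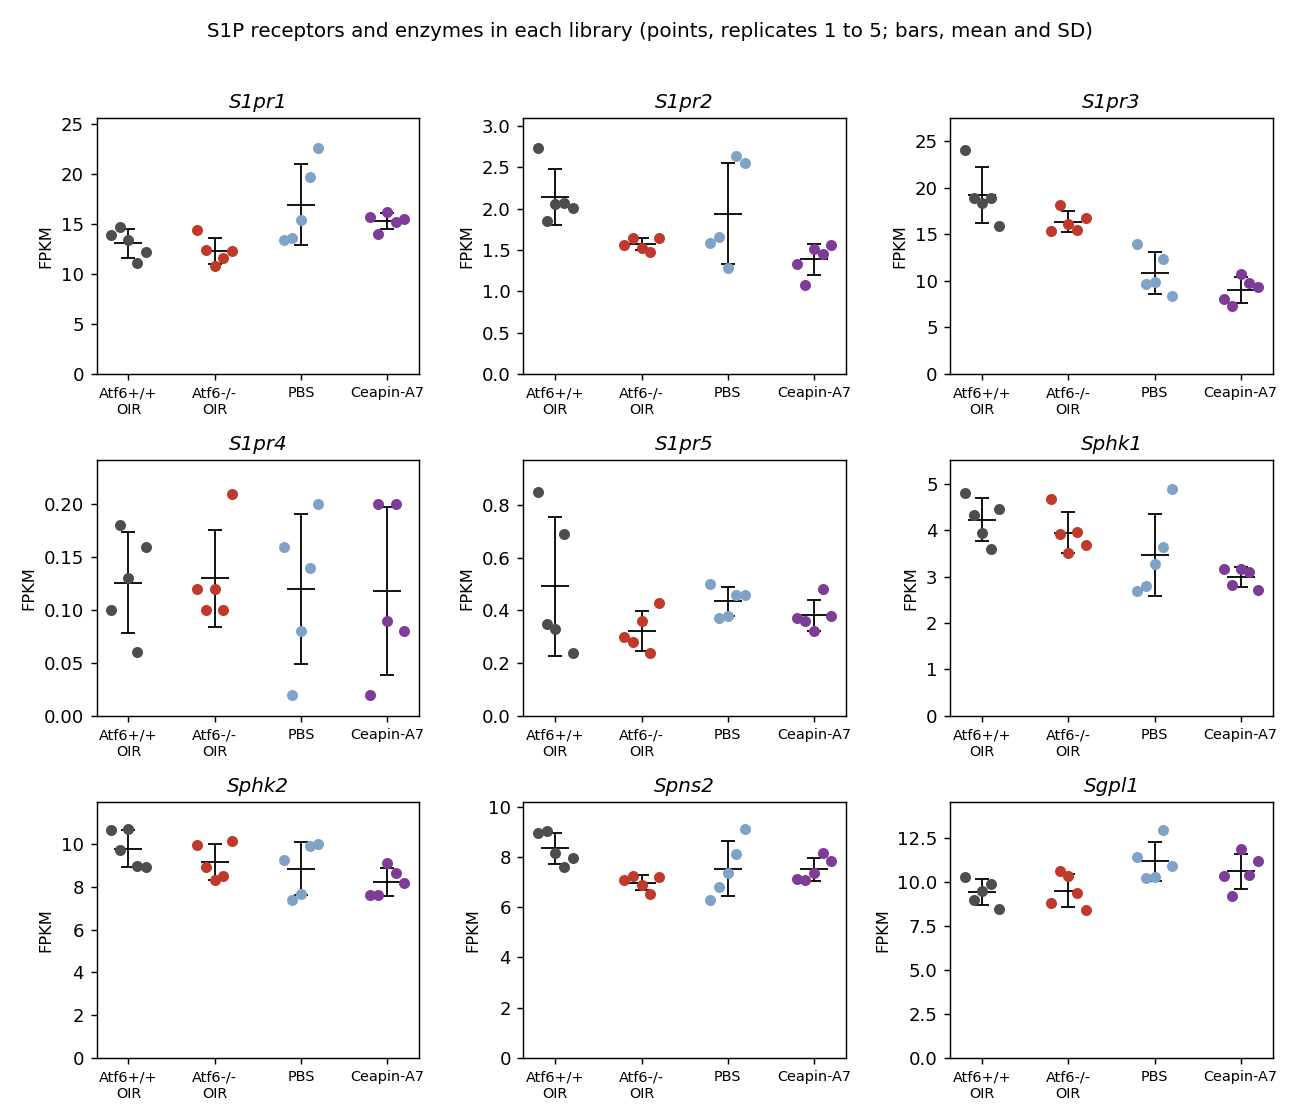
FPKM of each gene in each library, 1 panel per gene with its own linear axis from 0, with points for replicates 1 to 5 from left to right and bars for the mean and SD of the 5 libraries. *S1pr2* is lower in all 5 *Atf6*-/- OIR libraries than in any *Atf6*+/+ OIR library, and PBS replicates 4 and 5 lie above the other PBS libraries for *S1pr1*, *S1pr2*, *Sphk1*, *Sphk2* and *Spns2*.

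The comparison of *Atf6*-/- with *Atf6*+/+ OIR retina asks how loss of ATF6 goes with gene expression at the peak of vessel growth. Because the family was put together with values of this comparison known, its values here are a description without tests. Over all 15704 genes tested with limma, 0.0318% had an adjusted p under 0.05 and 12.7% an unadjusted p of 0.05 or less, with 5.83% of all genes tested past the latter and lower in *Atf6*-/-. Of the 9 S1P genes, 0 had an adjusted p under 0.05 and 2, *S1pr2* and *Spns2*, had an unadjusted p of 0.05 or less, both lower, and nothing is read from this count. In all, 7 of 9 were lower in *Atf6*-/-, with a median log2 fold change of -0.08, where 49.3% of all genes were lower and the median was 0.00. The direction of the unadjusted calls over all genes depends on the scaling: 54.3% were higher with the median-of-ratios factors used here and 30.5% with FPKM as deposited, whereas 7 of 9 S1P genes were lower under both. After a correction for the GC content of transcripts, 5 of 9 were lower.

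*S1pr2* (NCBI gene 14739) had the largest difference in OIR of the S1P genes above 1 FPKM. In replicates 1 to 5, the *Atf6*+/+ values were 2.73, 1.85, 2.06, 2.07 and 2.01 FPKM, and the *Atf6*-/- values were 1.56, 1.65, 1.52, 1.48 and 1.64 FPKM. All 5 *Atf6*-/- values were below all 5 *Atf6*+/+ values, with and without rescaling, and 0.694% of all genes tested had such a separation in this direction. The log2 fold change was -0.40 (standard error 0.11), a level 24.1% lower on the log2(FPKM + 0.1) scale used for all fold changes here. *Atf6*+/+ replicate 1 was the highest library, and without it the log2 fold change was -0.31. After GC correction it was -0.37.

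The sequence before the annotated start of *S1pr2* is shown with that of *S1pr3*, the receptor of highest level in OIR, because ATF6 is a DNA-binding factor and these letters show which of its known core motifs are present in each. Both were taken from RefSeq on GRCm38.p6, the build of the reference used here and not the GRCm39 build of the alignments, as the 250 bases before the start. Capitals mark TGACGT, which is only the core of the ATF6 site and not the full site, and CCACG, the 3′ end of the ER stress response element. In *S1pr2* the TGACGT core is followed by CA. It thus overlaps its own reverse complement, and the 8 letters TGACGTCA are capitalized. The letters that follow TGACGT in the full ATF6 site were not searched for, so these 8 letters are not shown to be that site.
S1pr2, chr9:20976794-20977043, minus strand: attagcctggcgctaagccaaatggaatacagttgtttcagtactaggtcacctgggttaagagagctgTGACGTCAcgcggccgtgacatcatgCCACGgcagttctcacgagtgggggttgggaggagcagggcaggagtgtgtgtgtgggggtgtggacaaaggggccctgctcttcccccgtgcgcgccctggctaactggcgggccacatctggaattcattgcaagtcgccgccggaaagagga
S1pr3, chr13:51408368-51408617, plus strand: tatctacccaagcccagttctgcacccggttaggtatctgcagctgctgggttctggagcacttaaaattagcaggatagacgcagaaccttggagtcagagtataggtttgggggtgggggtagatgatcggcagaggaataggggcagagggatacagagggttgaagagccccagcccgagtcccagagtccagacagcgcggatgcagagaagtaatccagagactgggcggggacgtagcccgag

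Searched on both strands, TGACGT was found only in the 1 window of *S1pr2*, of 13 windows over 8 S1P genes, and began 181 bases before the start. *S1pr1* had no window. CCACG was found in *S1pr2*, at 155 bases, and in 4 of 5 windows of *Sphk1* and 1 of 2 windows of *Sphk2*. Of 32851 windows of the same length over all genes, 6.47% held TGACGT and 28.3% held CCACG. The core ACGTG, shared by several stress-response factors, was found in *Sphk1*, *Sphk2* and *Sgpl1* and in 16.6% of all windows, and the full ER stress response element, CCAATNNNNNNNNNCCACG, in 0 of the 8 genes and 0.113% of windows. A match of letters is a description and not a site that was measured. The *S1pr2* values in OIR were known before this search, so nothing is read from its match.

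*Spns2* (NCBI gene 216892), the exporter, was at 8.97, 9.02, 8.16, 7.61 and 7.95 FPKM in *Atf6*+/+ OIR and at 7.09, 7.23, 6.87, 6.53 and 7.19 FPKM in *Atf6*-/- OIR. The groups did not overlap in FPKM as deposited and overlapped after rescaling, when 4 of 5 *Atf6*-/- libraries stayed below all *Atf6*+/+ libraries. Its log2 fold change was -0.23 (standard error 0.08). *Spns2* transcripts are rich in GC, at percentile 89.8 of the genes tested, and log2 fold changes in OIR went with GC content over all genes (Spearman's correlation -0.476 across genes, which are not independent). After GC correction the log2 fold change of *Spns2* was -0.11.

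*S1pr3* (NCBI gene 13610) was at 24.1, 18.87, 18.4, 18.9 and 15.87 FPKM in *Atf6*+/+ OIR and at 15.39, 18.14, 16.11, 15.41 and 16.77 FPKM in *Atf6*-/- OIR. The groups overlapped, with 3 of 5 *Atf6*-/- libraries below all *Atf6*+/+ libraries, and the log2 fold change was -0.20 (standard error 0.10) and -0.11 without *Atf6*+/+ replicate 1. *S1pr1* (NCBI gene 13609) ranged from 11.12 to 14.76 FPKM in *Atf6*+/+ and from 10.8 to 14.37 FPKM in *Atf6*-/-, and its log2 fold change of -0.07 was smaller than its standard error of 0.10. The ratio of *S1pr2* to *S1pr1* had a mean of 0.165 ± 0.0280 in *Atf6*+/+ and 0.129 ± 0.0121 in *Atf6*-/- (SD, n = 5 each).

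The enzymes that make and break S1P had differences smaller than their standard errors in OIR. *Sphk1* was between 3.6 and 4.8 FPKM in *Atf6*+/+ and between 3.5 and 4.67 FPKM in *Atf6*-/-, a log2 fold change of -0.08 (standard error 0.11). *Sphk2* had a log2 fold change of -0.08 (standard error 0.09), and *Sgpl1*, the lyase, one of 0.03 (standard error 0.07). Transcripts of both kinases are also rich in GC, at percentiles 94.2 and 91.4, and after GC correction their log2 fold changes were 0.06 and 0.05, the opposite direction. *S1pr5* had values of 0.85, 0.35, 0.33, 0.69 and 0.24 FPKM in *Atf6*+/+ OIR and ranged from 0.24 to 0.43 FPKM in *Atf6*-/- OIR, with a log2 fold change of -0.38 (standard error 0.28), and -0.17 without *Atf6*+/+ replicate 1. Its 2 highest values were both in *Atf6*+/+ and the lowest values of the groups were equal. *S1pr4* lay between 0.06 and 0.21 FPKM in all OIR libraries, with a log2 fold change of 0.04 and a standard error of 0.22.

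Most markers of several cell types had lower values in *Atf6*-/- OIR, the direction of *S1pr2*, *S1pr3* and *Spns2*. Of 14 endothelial markers, 13 were lower in *Atf6*-/- (median log2 fold change -0.30; in limma 0 passed the adjusted threshold and 5 the unadjusted one), and their summed FPKM ranged from 151 to 231 in *Atf6*+/+ and from 137 to 200.2 in *Atf6*-/-. All 10 mural cell markers were lower (median -0.53, with 0 and 5 past the same thresholds), with sums from 106 to 157 against 85.9 to 111 FPKM. Müller glia markers had 6 of 8 higher, with sums from 1619 to 2032 in *Atf6*+/+ and from 1922 to 2264 FPKM in *Atf6*-/-, and astrocyte sums ranged from 77.0 to 158.8 and from 54.5 to 119 FPKM. All 6 erythroid and platelet markers tested were lower (median -0.40), with sums from 373 to 2427 FPKM in *Atf6*+/+ and from 396 to 1328 FPKM in *Atf6*-/-. Of 10 microglia and macrophage markers, 9 were lower (median -0.13), with sums from 95.7 to 138 and from 82.1 to 113 FPKM. *Gnat1* ranged from 5162 to 5942 FPKM and from 5284 to 6863 FPKM. Every endothelial and mural marker was above 0 in these groups. After GC correction the medians were -0.20 for endothelial, -0.42 for mural, -0.32 for erythroid and platelet and -0.07 for microglia and macrophage markers. For Müller glia and astrocyte markers they were 0.15 and -0.04, against 0.20 and -0.11 without the correction. Lens fibre sums ranged from 9.88 to 598 and from 6.25 to 10.2 FPKM. The part of any of these in the S1P values was not tested.

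The comparison of Ceapin-A7 with PBS asks what a short block of ATF6 changes in P30 retina without OIR. Limma called 0.0% of 15408 genes at an adjusted p under 0.05 and 10.4% at the unadjusted threshold. Of the latter, 48.6% were higher, and 26.8% with rescaling to equal sums. Of the 9 S1P genes, 0 had an adjusted p under 0.05 and 1, *S1pr2*, had an unadjusted p of 0.05 or less, where 5.32% of all genes did so in this direction. In all, 8 of 9 were lower after Ceapin-A7, with a median log2 fold change of -0.12, against 49.7% of all genes, and the groups overlapped for every one of the 9, where 0.688% of all genes were separated with Ceapin-A7 lower. This count rests on PBS replicates 4 and 5: without them 4 of 9 were lower, *S1pr2*, *S1pr3*, *S1pr5* and *Sgpl1*, with a median of 0.01, beside 50.0% of all genes.

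*S1pr2* was at 1.58, 1.66, 1.28, 2.64 and 2.55 FPKM in PBS replicates 1 to 5 and at 1.33, 1.08, 1.51, 1.45 and 1.56 FPKM in Ceapin-A7 replicates 1 to 5. PBS replicates 4 and 5 were above all other P30 libraries, and PBS replicate 3 lay below 4 of the 5 Ceapin-A7 libraries. The log2 fold change was -0.42 (95% confidence interval -0.82 to -0.01), with an adjusted p = 0.476 in limma. The exact permutation test, two-sided and over the 252 arrangements, gave p = 0.0873 and can give no p below 0.00794. Over all alternatives the adjusted p ranged from 0.269 to 0.990. Without PBS replicates 4 and 5 the log2 fold change was -0.13 (standard error 0.14).

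*S1pr3* was at 13.9, 9.63, 9.83, 12.36 and 8.39 FPKM after PBS and at 8.02, 7.27, 10.74, 9.71 and 9.33 FPKM after Ceapin-A7. The lowest values were in Ceapin-A7 replicates 1 and 2, and 2 of 5 Ceapin-A7 libraries were below all PBS libraries. The log2 fold change was -0.25 (95% confidence interval -0.56 to 0.06, adjusted p = 0.521 from limma, exact permutation p = 0.159). PBS replicates 4 and 5 were not both high for this gene, and without them the log2 fold change was -0.31 (standard error 0.14). It was -0.15 without PBS replicate 1, the highest library, and -0.14 with a covariate of Y-linked expression.

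*S1pr1* was at 13.38, 13.63, 15.41, 19.71 and 22.68 FPKM after PBS and at 15.68, 13.97, 16.24, 15.18 and 15.53 FPKM after Ceapin-A7. The spread after PBS, from 13.38 to 22.68 FPKM, enclosed that after Ceapin-A7. The log2 fold change was -0.12 (95% confidence interval -0.39 to 0.16, adjusted p = 0.732 from limma) and 0.10 without PBS replicates 4 and 5. *Sphk1* had a like spread, from 2.7 to 4.89 FPKM after PBS and from 2.72 to 3.16 FPKM after Ceapin-A7, with log2 fold changes of -0.17 (95% confidence interval -0.47 to 0.12, adjusted p = 0.635 from limma) and 0.02 without those libraries.

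The other S1P genes had intervals that include 0 after Ceapin-A7. *Sphk2* had a log2 fold change of -0.09 (95% confidence interval -0.28 to 0.10), *Sgpl1* of -0.08 (-0.24 to 0.09) and *Spns2* of 0.00 (-0.18 to 0.19), with adjusted p-values from limma between 0.694 and 0.990. Without PBS replicates 4 and 5 they were at 0.01, -0.03 and 0.12. *S1pr5* was between 0.37 and 0.5 FPKM after PBS and between 0.32 and 0.48 FPKM after Ceapin-A7, and *S1pr4* spread from 0.02 to 0.2 FPKM in both groups. Without those libraries, the log2 fold change of *S1pr5* was -0.11 and that of *S1pr4* 0.20.

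Other measures moved with the P30 groups too. Müller glia markers were higher after Ceapin-A7 in 7 of 8, with sums from 790.0 to 1952 FPKM after PBS and from 1592 to 1844 FPKM after Ceapin-A7, and *Gnat1* ranged from 3841 to 5884 and from 5185 to 5664 FPKM. Astrocyte sums ranged from 32.2 to 59.0 FPKM after PBS and from 23.5 to 47.3 FPKM after Ceapin-A7, with 3 of 5 markers lower. Endothelial sums ranged from 103 to 124 FPKM after PBS and from 96.5 to 113 FPKM after Ceapin-A7, with 7 of 14 markers lower. Mural sums ranged from 30.9 to 43.2 and from 36.0 to 86.5 FPKM, the highest in Ceapin-A7 replicate 3 and the next of that group at 40.8 FPKM. Lens fibre sums ranged from 8.95 to 5361 and from 95.6 to 9639 FPKM. The part of any of these measures in the S1P values was not tested.

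**Figure D3:**
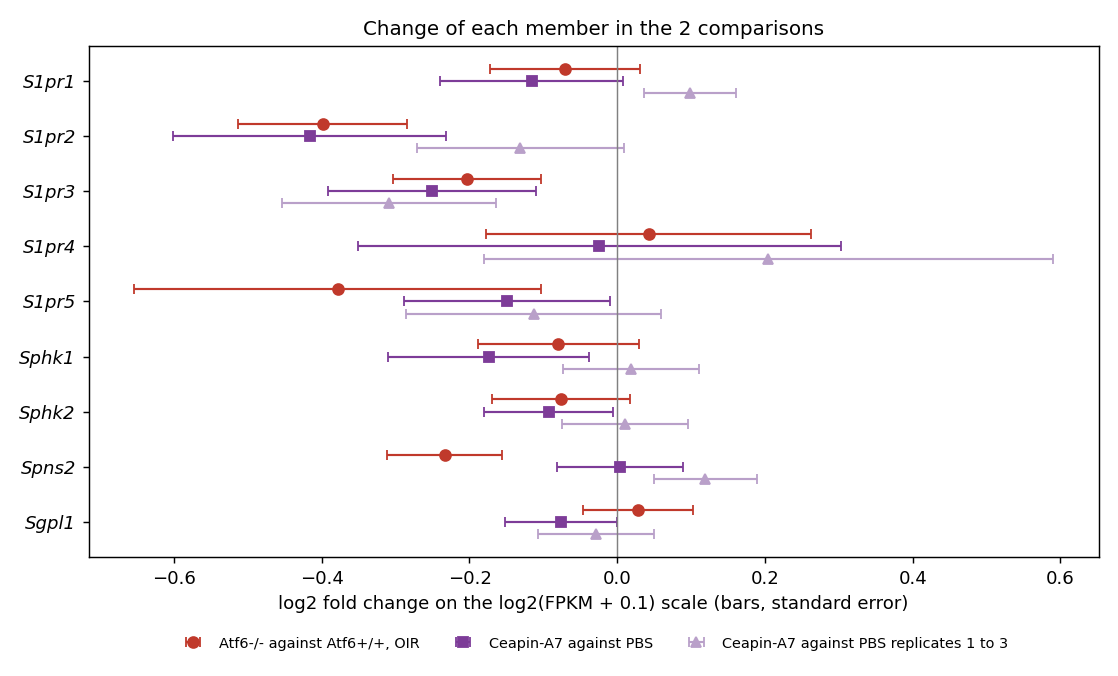
Log2 fold change of each gene on the log2(FPKM + 0.1) scale with its standard error, for *Atf6*-/- against *Atf6*+/+ OIR (circles), Ceapin-A7 against PBS (squares) and Ceapin-A7 against PBS replicates 1 to 3 (triangles). *S1pr2* is at -0.40, -0.42 and -0.13, and *S1pr1*, *S1pr4*, *Sphk1* and *Sphk2* change sign between the squares and the triangles.

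The OIR effect minus the Ceapin-A7 effect was taken over the 20 libraries, since the comparisons share none, and is given without a test because it holds the OIR values with which the genes were chosen. For *S1pr2* the difference was 0.02 on the log2 scale (standard error 0.22), and -0.27 (standard error 0.18) without PBS replicates 4 and 5, so its size rests on those libraries. *Spns2* was at -0.24 (standard error 0.11) and at -0.35 (standard error 0.10) without them. Its size also rests on GC content: after GC correction the *Spns2* log2 fold changes were -0.11 in OIR and 0.03 after Ceapin-A7, against -0.23 and 0.00 without the correction.

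Library-to-library spread within groups tied some S1P genes to each other. Values were centred on their group mean in the 20 libraries, and each S1P gene with a mean of at least 1 FPKM was set beside the 12997 genes that reach this level, as a description without a test. *S1pr1* went most closely with *Ldlrad4*, a membrane protein that dampens TGF-β signalling (Pearson's r = 0.904), and next with *Sphk1* (r = 0.884), and for *Sphk1* the closest of all genes was *S1pr1*. *S1pr1* with *Spns2* had r = 0.848. These figures rest in part on PBS replicates 4 and 5 and on GC content: without those libraries r was 0.838 for *Sphk1* and 0.775 for *Spns2*, and after GC correction 0.700 and 0.677. In the OIR libraries alone (n = 10) the values were 0.793 and 0.811, and in the P30 libraries alone (n = 10) 0.932 and 0.868.

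**Figure D4:**
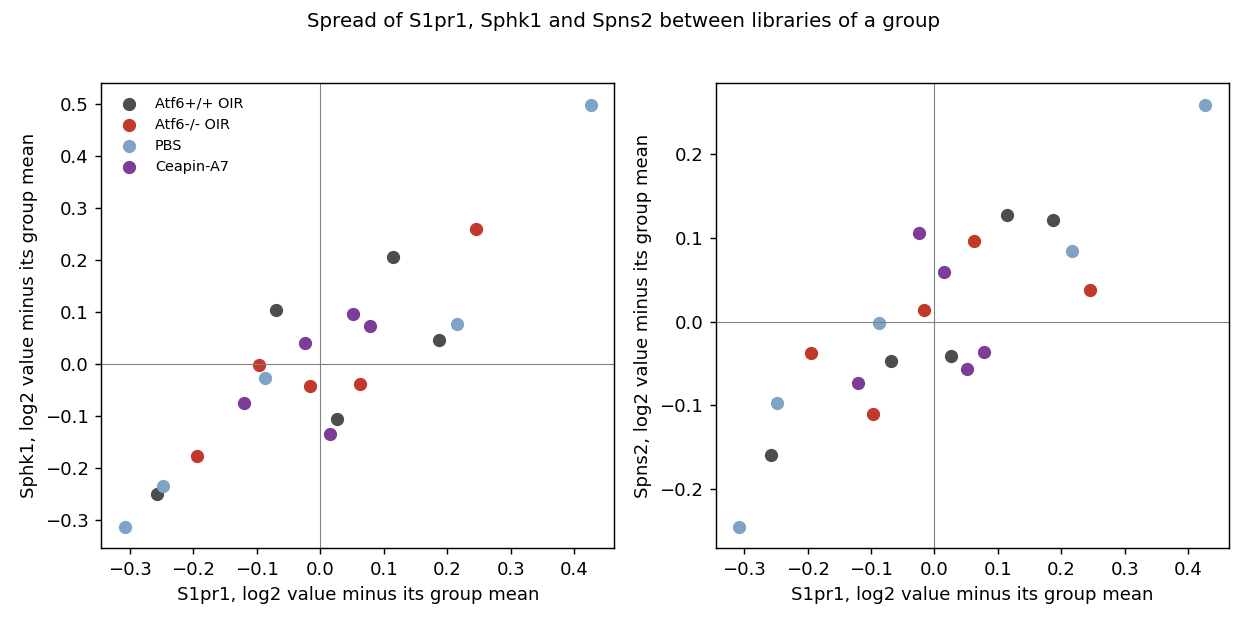
Log2 values of *Sphk1* (left) and *Spns2* (right) against *S1pr1* in the 20 libraries, each minus its group mean, coloured by group. The points run from lower left to upper right (r = 0.884 and 0.848), with PBS replicate 5 at the upper end of both panels.

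The genes closest to *S1pr2* were *Ankrd6* (r = 0.916), *Cd44*, the hyaluronan receptor (r = 0.906), and *Nes*, the intermediate filament nestin (r = 0.897). With other S1P genes, *S1pr2* had r = 0.642 (*Sphk2*), 0.635 (*S1pr1*), 0.614 (*Spns2*), 0.547 (*Sgpl1*), 0.541 (*Sphk1*) and 0.258 (*S1pr3*). Without PBS replicates 4 and 5, r was 0.859 for *Ankrd6*, 0.845 for *Cd44* and 0.838 for *Nes*. The order of the S1P genes rests on those libraries: without them r was 0.564 (*Sgpl1*), 0.554 (*Sphk2*), 0.5 (*S1pr3*), 0.469 (*Spns2*), 0.438 (*S1pr1*) and 0.372 (*Sphk1*). After GC correction r was 0.914 for *Cd44* and 0.896 for *Nes*. In the OIR libraries alone they were 0.844 and 0.832, and in the P30 libraries alone 0.937 and 0.916. *S1pr3* went with *Tsc22d4* (r = 0.840), *Clu*, the secreted chaperone clusterin (r = 0.840), and *Ddost*, a subunit of the oligosaccharyltransferase (r = 0.828). *S1pr3* with *S1pr1* had r = -0.12, and 0.08 without PBS replicates 4 and 5, while *S1pr3* with *Sgpl1* had r = 0.685, and 0.7 without them. *Sphk2* went with *Gas2l1*, the integrin subunit *Itga5* and the adaptor *Ticam1* (r from 0.843 to 0.899), *Spns2* with *Syt6*, *Gm13889* and *Zdhhc22* (0.866 to 0.874), and *Sgpl1* with *Nln*, *Serpinb6a* and *Cyb5r3* (0.831 to 0.840).

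The rest of the pathway was read from lists of genes around S1P. These lists were chosen with earlier results of these data known, so their counts and p-values are a description. Of the 62 genes tested in OIR, 0 passed an adjusted p under 0.05 in limma, and 9 had an unadjusted p of 0.05 or less, 5 higher and 4 lower. Of the 61 tested after Ceapin-A7, 0 and 9 did so, 4 higher and 5 lower, and 4 without PBS replicates 4 and 5. Of all genes tested, 12.7% and 10.4% did so.

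De novo sphingolipid synthesis makes the ceramide from which sphingosine is released. Of its genes, 3 of 15 tested were lower in *Atf6*-/- OIR (median log2 fold change 0.05) and 6 of 16 after Ceapin-A7 (median 0.03), where 49.3% and 49.7% of all genes were lower. After GC correction, 9 of 15 were higher in OIR (median 0.02), and with rescaling to equal sums 7 of 16 were higher after Ceapin-A7. *Kdsr*, the reductase of the pathway's early step, had means of 13.2 and 15.6 FPKM in *Atf6*+/+ and *Atf6*-/- OIR (log2 fold change 0.25, standard error 0.07, adjusted p = 0.357 from limma) and of 21.3 and 23.2 FPKM after PBS and Ceapin-A7 (0.13, standard error 0.06, adjusted p = 0.480, and 0.05 without PBS replicates 4 and 5). *Degs1*, the desaturase that completes ceramide, was at 0.21 in OIR (adjusted p = 0.374) and 0.15 after Ceapin-A7 (adjusted p = 0.472, and 0.09 without those libraries). *Cers1*, a ceramide synthase, was at -0.34 in OIR (adjusted p = 0.390 from limma). Transcript GC content was 41.7% for *Kdsr*, 46.5% for *Degs1* and 62.6% for *Cers1*, and OIR fold changes went with GC content. No GC-corrected fold change is given for the named pathway genes.

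Among enzymes that supply sphingosine, 9 of 13 were higher in OIR, 6 of 13 after GC correction, and 6 of 13 after Ceapin-A7, or 9 of 13 without PBS replicates 4 and 5. *Smpd1*, the acid sphingomyelinase, had a log2 fold change of 0.16 in OIR (adjusted p = 0.390 from limma), and *Acer2*, an alkaline ceramidase of the Golgi, one of -0.16 (adjusted p = 0.370). Of the genes that dephosphorylate or carry S1P, *Plpp2*, a lipid phosphate phosphatase, had a mean of 60.7 ± 12.1 FPKM in *Atf6*+/+ OIR and 76.0 ± 11.3 FPKM in *Atf6*-/- OIR (log2 fold change 0.35, standard error 0.14, adjusted p = 0.365 from limma). After PBS and Ceapin-A7 it was at 38.3 ± 8.12 and 48.0 ± 4.78 FPKM (0.35, standard error 0.14, adjusted p = 0.472 from limma), and without PBS replicates 4 and 5 the log2 fold change was 0.15. *Mfsd2b*, the S1P exporter of red cells and platelets, was at -0.24 after Ceapin-A7 (adjusted p = 0.480 from limma) and at -0.21 without them.

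G proteins and effectors carry the signal of the receptors into the cell. Of 19 genes tested, 15 were lower in *Atf6*-/- OIR (median log2 fold change -0.09) and 17 after Ceapin-A7 (median -0.06), beside 49.3% and 49.7% of all genes, and the counts were also 15 and 17 after GC correction. The count after Ceapin-A7 rests on PBS replicates 4 and 5: without them 10 of 19 were lower, with a median of -0.01. *Arrb1*, a β-arrestin, was at -0.28 and *Rhob*, a small GTPase, at -0.36 in OIR (adjusted p = 0.380 and 0.388 from limma). After Ceapin-A7, *Gnai3* and *Gna12*, G protein α subunits, were at -0.15 and -0.16, and *Arhgef12*, an exchange factor driven by G12/13, was at -0.16 (adjusted p from 0.472 to 0.480 from limma). Without PBS replicates 4 and 5 they were at -0.12, -0.09 and -0.04. None of these passed the adjusted threshold in either comparison.

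**Figure D5:**
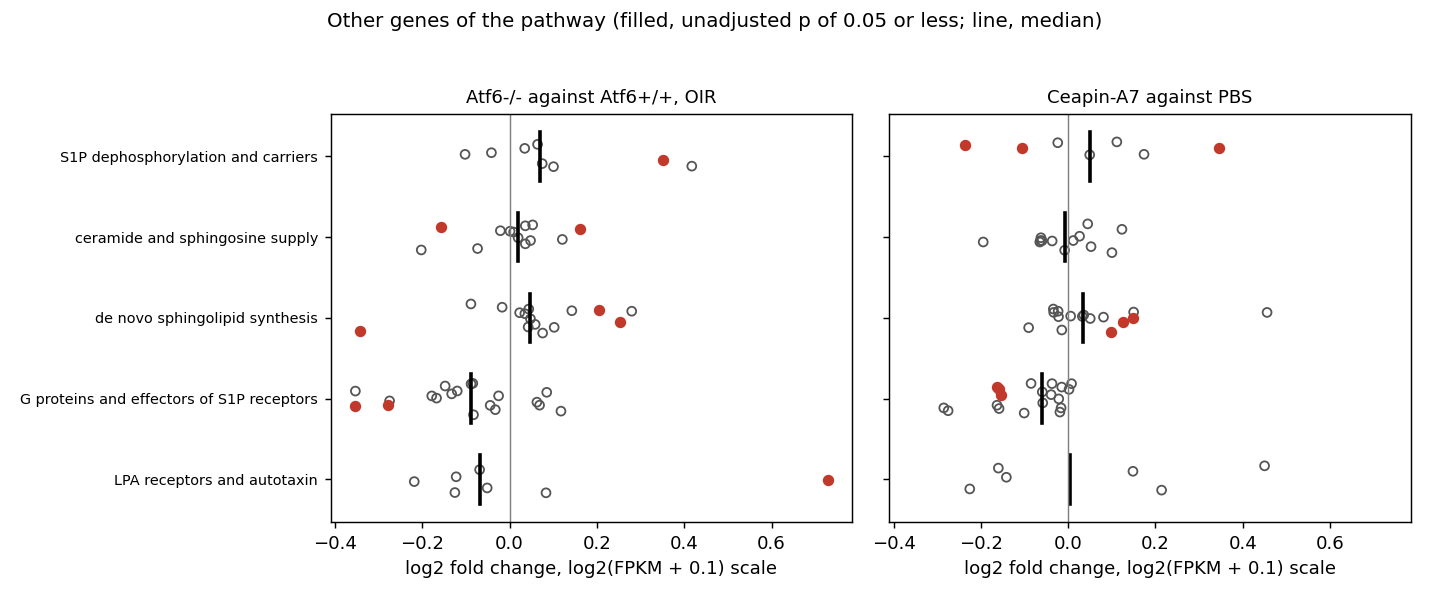
Log2 fold changes of the other genes of the pathway, 1 row per list, in *Atf6*-/- against *Atf6*+/+ OIR (left) and Ceapin-A7 against PBS (right), with filled points at an unadjusted p of 0.05 or less and a line at each median. The list of G proteins and effectors has medians of -0.09 and -0.06 (-0.01 without PBS replicates 4 and 5), and that of de novo synthesis 0.05 and 0.03.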

How the data were processed

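Bulk RNA-Seq of mouse retina was analysed in 20 libraries, grouped by the sample labels. The authors prepared stranded mRNA libraries for the DNBSEQ platform, sequenced paired-end reads of 100 bp, used HISAT2 (v2.0.4) for alignment to GRCm39 and RSEM (v1.2.18) for quantification, and deposited FPKM per gene with 2 decimals. Counts and depth are unknown, so no count model or counting interval was made. The labels and methods name no batch. They also differ on the additive in the saline of the PBS group.

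For each experiment, median-of-ratios factors brought FPKM to a common scale, and log2(FPKM + 0.1) of genes with a mean FPKM above 0.1 was fitted with limma (3.58.1, eBayes with trend, R 4.3.3). The Benjamini-Hochberg adjustment covered every gene tested in a fit. All 9 S1P genes passed the filter in both experiments. The difference between the effects, planned as a test, is given as a value only, since it includes the OIR values. For Ceapin-A7, exact two-sided permutation tests used rescaled log2 values. The fits were tested on simulated data. The members and lists were chosen with earlier results of these data known. Named pathway genes are up to 3 per list with the smallest p, and of each list of likeness the 3 genes of highest r. Alternatives covered pseudocounts, filters, scalings, limma without trend or with array weights, all 20 libraries in one fit, a replicate block, GC correction (lowess, span 0.3), a Y-linked covariate and leaving out each library. GC content came from a GRCm38 annotation, for 98.4% of genes tested in OIR.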

Additional observations from a re-analysis of the deposited data

Results flagged for a closer look

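In 36 groups of 5 libraries (9 genes in 4 groups), 2 held a library farther from the others than Dixon's critical value of 0.71 allows, and chance flags about 1 in 20 groups. *S1pr2* was at 2.73 FPKM in *Atf6*+/+ OIR replicate 1 (ratio of gap to range 0.750), the highest value of that gene in the 20 libraries; without this library the log2 fold change in OIR was -0.31. *S1pr4* was at 0.21 FPKM in *Atf6*-/- OIR replicate 5 (ratio 0.818), close to the filter value of 0.1 FPKM.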

How the results depend on the processing

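With 5 libraries a group and unknown depth, differences within the spread of PBS or near 0.1 FPKM were not detectable. The S1P genes called at an adjusted p under 0.05 were 0 in both comparisons under the alternatives run, except 2 in OIR with array weights, where 2772 genes and 13 pathway genes were also called. The cause was not tested.

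Genes called in OIR (5) became 9 without a filter, 8 with GC correction, 11 with all 20 libraries in one fit and 5 to 9 on leaving out 1 library. At an unadjusted p, 2002 became 5750 with array weights and 1091 to 4014 on leaving out 1 library, the lowest without *Atf6*-/- replicate 4 and the highest without *Atf6*-/- replicate 5. The 2 S1P genes became 1 with GC correction, alone or with the replicate block, and the 9 pathway genes became 4 without trend, 22 with array weights and 3 to 16 on leaving out 1 library.

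After Ceapin-A7, 1 gene was called with all 20 libraries in one fit. At an unadjusted p, 1596 genes became 953 (without PBS replicate 4) to 2532 (without PBS replicate 2) and 770 without PBS replicates 4 and 5. The 1 S1P gene became 0 without a filter, as deposited, without trend and without PBS replicates 4 and 5, and 0 to 1 on leaving out 1 library: 0 without PBS replicate 4 or Ceapin-A7 replicate 1, 2, 3 or 4. The 9 pathway genes became 5 without trend, 3 with array weights, 4 without PBS replicates 4 and 5 and 1 to 11 on leaving out 1 library.

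Log2 fold changes after Ceapin-A7 reversed without PBS replicates 4 and 5 for *S1pr1* (0.0989), *Sphk1* (0.0186), *Sphk2* (0.0104) and *S1pr4* (0.204). *S1pr4* also reversed with array weights (0.0051) and GC correction, alone or with the block (0.0040), and ranged from -0.22 to 0.17 on leaving out 1 library. *Spns2* reversed with rescaling to equal sums (-0.0344) and the Y-linked covariate (-0.0146), and ranged from -0.0551 to 0.0673. The log2 fold change of *Spns2* in OIR moved to -0.11 with GC correction.

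The deviations of same-numbered libraries had correlations from -0.258 to 0.310, the highest for replicate 1 of PBS and Ceapin-A7. This cannot exclude a pairing by replicate number. With the replicate number as a block, 1967 genes in OIR and 1606 after Ceapin-A7 had an unadjusted p of 0.05 or less in limma. The S1P genes stayed at 2 and 1, and the pathway genes after Ceapin-A7 were 5, also 5 with GC correction.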

Other observations

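Lysophosphatidic acid (LPA) is the sister signal of S1P, made outside cells by autotaxin, the product of *Enpp2*, and read by receptors of the same or related families. *Enpp2* had the largest difference of the named genes in OIR, with a mean of 13.9 ± 3.86 FPKM in *Atf6*+/+ and 22.8 ± 6.39 FPKM in *Atf6*-/- (SD, n = 5 each). Its log2 fold change was 0.73 with a standard error of 0.22, and limma gave an adjusted p = 0.357. The groups overlapped, from 7.85 to 18.07 FPKM against 14.63 to 31.88 FPKM. *Enpp2* is also known from retinal pigment epithelium, and 9 of 10 markers of that epithelium were higher in *Atf6*-/- OIR, with sums from 19.3 to 114 FPKM in *Atf6*+/+ and from 72.3 to 302 FPKM in *Atf6*-/-; their part in the *Enpp2* value was not tested. The LPA receptors tested were *Lpar1* to *Lpar6* in OIR, of which 5 were lower, between -0.22 (*Lpar6*) and -0.05 (*Lpar2*), and *Lpar1* was at 0.08. After Ceapin-A7, *Enpp2* was at 0.21 (adjusted p = 0.724 from limma) and at -0.20 without PBS replicates 4 and 5, the opposite direction. *Lpar3*, near 0.15 to 0.23 FPKM on average, was at 0.45 (adjusted p = 0.541 from limma), and 3 of the 6 genes tested were lower.

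*S1pr4* and *S1pr5* were low in a tissue in which lymphocyte markers were low too. The summed FPKM of 9 lymphocyte and natural killer cell markers lay between 0.67 and 2.22 in each library, with *Cd3e* and *Cd3g* at 0 in all Ceapin-A7 libraries and *Ncr1* at 0 in all *Atf6*-/- OIR libraries. Oligodendrocyte marker sums lay between 22.97 and 33.54 FPKM. Of these 9 markers, 4 had a mean above 0.1 FPKM in *Atf6*+/+ OIR and 6 in each other group. *Mobp* was at 0 in all *Atf6*-/- OIR and all PBS libraries. As a share of receptor FPKM, *S1pr1* and *S1pr3* together left little to the others: *S1pr2* held 6.12% ± 0.594 in *Atf6*+/+ OIR, 5.12% ± 0.138 in *Atf6*-/- OIR, 6.31% ± 1.23 after PBS and 5.27% ± 0.387 after Ceapin-A7 (SD, n = 5 each).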
